A study of Mus musculus with 12 samples.

Results

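The endothelial identity genes Pecam1, Cdh5, Tie1, Tek, Eng, Cldn5, Esam and Vwf and the angiopoietins Angpt1 and Angpt2 were followed through RNA-seq of mouse mammary tissue. These 10 genes were chosen by name, and rows that share a name were summed. All 10 were found among the 23704 gene names of the Normal and Tumor files, and 9 among the 23691 names of the DMSO and C646 files, where Esam appears only in a row joined with its neighbour Msantd2. The series holds 12 female mouse samples in 4 groups of 3, all 12 weeks old. Normal was mammary gland of untreated FVB wild type mice, with the abdominal and inguinal glands of 3 mice pooled in each replicate. Tumor was the thoracic gland tumor of 1 untreated MMTV-PyVT mouse per replicate, a strain in which the MMTV promoter drives the polyomavirus middle T oncogene in mammary epithelium. DMSO and C646 were tumors of MMTV-PyVT mice injected with the solvent DMSO or with C646, an inhibitor of the p300 histone acetyltransferase, and the largest tumor of each of 3 mice was used. The labels give 1 mg/kg for both injections. Tumor was compared with Normal, and C646 with DMSO.

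Endothelial cells line the blood vessels and are held together by junctions of VE-cadherin (Cdh5), PECAM-1 (Pecam1), claudin-5 (Cldn5) and ESAM (Esam). Tek encodes Tie2, the receptor of the angiopoietins. Angiopoietin-1, made largely by mural and stromal cells, activates Tie2 and keeps vessels quiet, while angiopoietin-2, made largely by endothelial cells and stored with von Willebrand factor (Vwf) in Weibel-Palade bodies, can block or activate Tie2 and is known from remodelling vessels. Tie1 is the related receptor that binds no angiopoietin with high affinity and acts together with Tie2, and endoglin (Eng) is the co-receptor of endothelial BMP9 signalling. Several of these genes are not exclusive to endothelium, since Pecam1 is also made by platelets and leukocytes, Vwf by megakaryocytes, and Eng by some stromal cells and macrophages.

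Promoter windows of the receptor genes and of Cldn5 are shown as background, and no link of their motifs to expression was tested. RefSeq windows on GRCm38.p6, from 250 bases before to 50 after the RefSeq start, were found for 4 of the 10 members. In Tek, Eng and Cldn5 this start was also the GENCODE gene start, while in Tie1 it lay 212 bases inside the GENCODE gene, so that 262 bases of the Tie1 window were within the gene and 38 before it. They are written 5′ to 3′ along the gene, with capitals marking the ETS core GGAA (read as TTCC on the opposite strand), the GATA motif AGATAA (read as TTATCT on the opposite strand) and the SOX motif ACAAAG (read as CTTTGT on the opposite strand). No pair of these motifs overlapped in the 4 windows.
Tek, chr4:94739039-94739338, plus strand: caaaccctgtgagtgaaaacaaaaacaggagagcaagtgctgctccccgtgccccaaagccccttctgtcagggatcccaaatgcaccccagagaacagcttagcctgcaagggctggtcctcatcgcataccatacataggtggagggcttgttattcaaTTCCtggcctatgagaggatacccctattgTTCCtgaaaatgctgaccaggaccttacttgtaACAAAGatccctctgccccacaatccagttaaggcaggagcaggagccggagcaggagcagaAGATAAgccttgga
Tie1, chr4:118489800-118490099, minus strand: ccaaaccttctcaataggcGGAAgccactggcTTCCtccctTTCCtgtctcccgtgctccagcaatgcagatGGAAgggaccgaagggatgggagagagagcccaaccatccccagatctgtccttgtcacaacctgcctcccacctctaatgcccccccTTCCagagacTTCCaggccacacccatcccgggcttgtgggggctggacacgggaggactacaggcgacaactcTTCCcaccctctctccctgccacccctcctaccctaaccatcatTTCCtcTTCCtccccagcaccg
Eng, chr2:32646345-32646644, plus strand: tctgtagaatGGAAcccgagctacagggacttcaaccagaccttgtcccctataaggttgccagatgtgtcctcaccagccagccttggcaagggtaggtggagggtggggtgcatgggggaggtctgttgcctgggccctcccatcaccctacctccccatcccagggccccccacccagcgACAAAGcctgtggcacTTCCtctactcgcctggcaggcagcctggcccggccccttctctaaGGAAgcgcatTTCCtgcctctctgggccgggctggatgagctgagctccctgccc
Cldn5, chr16:18776597-18776896, plus strand: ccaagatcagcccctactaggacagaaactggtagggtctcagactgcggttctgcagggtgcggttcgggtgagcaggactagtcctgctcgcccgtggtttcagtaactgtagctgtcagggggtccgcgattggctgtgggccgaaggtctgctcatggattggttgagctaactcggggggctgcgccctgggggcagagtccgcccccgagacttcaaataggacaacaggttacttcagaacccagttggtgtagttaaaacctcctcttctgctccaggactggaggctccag
The window of Tie1 held 9 copies of GGAA, that of Eng 4, that of Tek 2 and that of Cldn5 0, beside a median of 3 and quartiles of 2 and 5 over 32851 RefSeq windows. Of all windows, 96.0% held GGAA, so its presence is common. AGATAA was found once, in Tek (11.2% of all windows), and ACAAAG once in Tek and once in Eng (18.7% of all windows). These are matches of letters only.

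Expression was given as FPKM, a fragment number scaled to transcript length and to all mapped fragments, which allows levels of different genes to be compared. Read totals were not in the files. Over all rows the FPKM of a sample summed to 526855 to 783719, and 12138 to 14296 rows reached 1 FPKM. Of 24 other pan-endothelial genes, 22 had a row in all 12 files, and their FPKM summed to 436 to 453 in Normal, 83.9 to 153 in Tumor, 72.3 to 144 in DMSO and 82.2 to 108 in C646, so endothelial transcripts were present in every sample. Eng shares 61 exonic bases with Fpgs and Angpt1 shares 737 with Gm17473, both on the opposite strand, and the libraries carried no strand, so reads from these stretches cannot be told apart.

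Tumor was compared with Normal to see how the blood vessel transcripts of the gland differed in the tumor. All 10 members were lower in Tumor, by 2.45-fold for Angpt1 to 10.4-fold for Vwf in mean FPKM, and no member overlapped between the groups. By limma, all 10 passed an adjusted p of 0.05, while 31.7% of the 13031 genes tested were lower by the same call and 28.8% were higher. Without overlap, 35.8% of genes were lower and 33.1% were higher. The median log2 fold change was -2.41 over the members and -0.02 over all genes tested. Angpt2 reached 1 FPKM only in Normal and so entered the test through the group where it was high. With no filter on low values, 10 members were again lower. Tissue, gland position and number of mice per replicate changed together between these groups and cannot be told apart. In whole tissue, fewer endothelial cells and less RNA per endothelial cell cannot be told apart either. FPKM is scaled to all mapped fragments, so a larger share of RNA from other cells cannot be told apart from these.

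**Figure D1:**
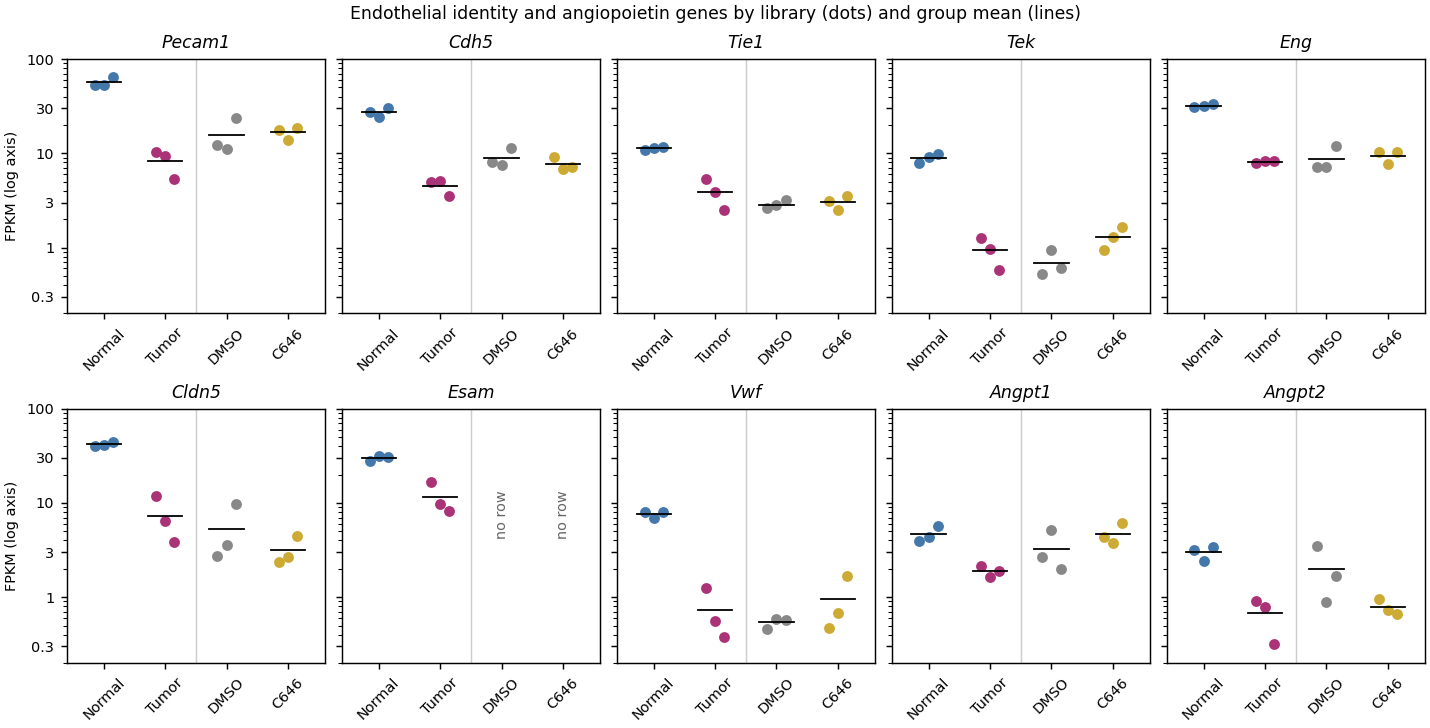
FPKM of the 10 members in each sample on a shared log axis, with dots for samples and lines for the group mean (n = 3). Every Normal sample lies above every Tumor sample in all 10 panels, and DMSO and C646 samples intermix in all but Tek. The grey line separates the 2 experiments, and Esam had no row of its own in the second.

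Gene positions are given for the whole gene on GRCm38 from GENCODE, and all 10 members are protein-coding. The junction and adhesion genes were among the most abundant members in normal gland. Pecam1 (chr11:106654217-106750628, minus strand) was at 53.7, 52.8 and 64.5 FPKM in the 3 Normal samples and at 10.3, 9.26 and 5.33 in the 3 Tumor samples. All Tumor samples were low, and the third was the lowest. The log2 fold change of Pecam1 was -2.83 (SE 0.25, limma adjusted p = 1.13e-04). Cdh5 (chr8:104101625-104144511, plus strand) was at 27.5, 24.4 and 30.2 FPKM in Normal and 4.91, 5.11 and 3.54 in Tumor. Its log2 fold change was -2.60 (SE 0.19, limma adjusted p = 4.89e-05), and the groups lay far apart with little spread inside either. Cldn5 (chr16:18776847-18778262, plus strand), the claudin of tight endothelial junctions, was at 39.9, 41.5 and 44.1 FPKM in Normal and 11.7, 6.43 and 3.81 in Tumor. It fell by 2.66 on the log2 scale (SE 0.37, limma adjusted p = 7.16e-04), with a coefficient of variation of 5.12% in Normal and 55.0% in Tumor, so the tumors differed among themselves. Esam (chr9:37528078-37538319, plus strand), an adhesion molecule of endothelial tight junctions also carried by platelets, was at 27.9, 31.4 and 30.6 FPKM in Normal and 16.7, 9.67 and 8.14 in Tumor. Its change was among the smaller ones, with a log2 fold change of -1.45 (SE 0.26, limma adjusted p = 0.00247).

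The 3 receptors fell by different amounts. Tek (chr4:94739289-94874976, plus strand) was at 7.90, 9.15 and 9.94 FPKM in Normal and at 1.25, 0.975 and 0.579 in Tumor, a log2 fold change of -3.28 (SE 0.30, limma adjusted p = 1.21e-04). Only 1 Tumor sample reached 1 FPKM. Tie1 (chr4:118471191-118490061, minus strand) was at 10.9, 11.5 and 11.5 FPKM in Normal and stood at 5.33, 3.91 and 2.49 in Tumor, a log2 fold change of -1.59 (SE 0.27, limma adjusted p = 0.00191). Eng (chr2:32646595-32682669, plus strand) was at 31.1, 32.0 and 33.1 FPKM in Normal and at 7.83, 8.37 and 8.33 in Tumor, a log2 fold change of -1.97 (SE 0.12, limma adjusted p = 2.80e-05). Eng was the most even member in Tumor, with a coefficient of variation of 3.67%, against 63.2% for Vwf, 36.3% for Tie1 and 36.2% for Tek. In Normal, Eng (3.10%) and Tie1 (3.11%) were about equally even.

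Of the secreted products, Vwf (chr6:125546774-125686679, plus strand) changed by more than either angiopoietin in mean FPKM. It was at 7.998, 6.97 and 8.06 FPKM in Normal and at 1.26, 0.563 and 0.381 in Tumor, a log2 fold change of -3.50 (SE 0.41, limma adjusted p = 3.50e-04). Angpt1 (chr15:42424723-42676977, minus strand) was at 3.92, 4.36 and 5.66 FPKM in Normal and at 2.15, 1.63 and 1.92 in Tumor. Its log2 fold change of -1.27 (SE 0.22, limma adjusted p = 0.00224) was the smallest of the 10, and it was -0.74 with quantile normalization. Angpt2 (chr8:18690263-18741562, minus strand) was at 3.18, 2.44 and 3.41 FPKM in Normal and at 0.907, 0.793 and 0.318 in Tumor, and its log2 fold change was -2.22 (SE 0.42, limma adjusted p = 0.00301), or -1.27 with a pseudocount of 1 and -1.33 with quantile normalization. All Angpt2 values of the tumors were under 1 FPKM, so in Tumor it was the least abundant member by mean.

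**Figure D2:**
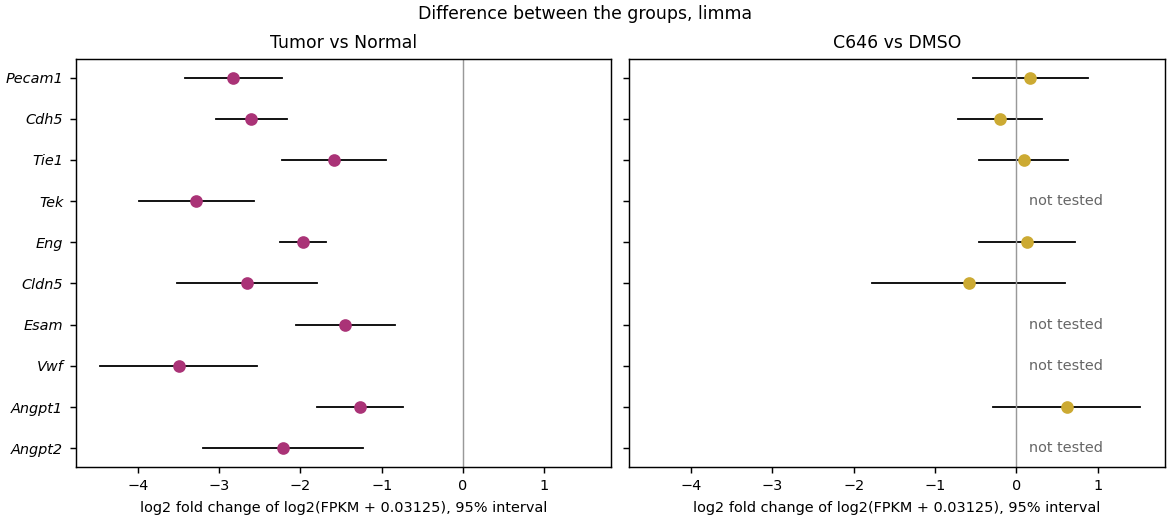
Log2 fold change of each member with its 95% interval from limma, Tumor against Normal on the left and C646 against DMSO on the right, on one axis. On the left all 10 intervals lie below 0, and on the right all 6 intervals cross it, while 4 members were not tested.

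The order of the members by level changed with the tissue. In Normal, Pecam1 was highest with 57.0 ± 6.53 FPKM (SD, n = 3), followed by Cldn5 with 41.8 ± 2.14 and Eng with 32.1 ± 1.00, with no overlap between neighbours. Eng, Esam and Cdh5 overlapped from one to the next, and so did Tek and Vwf, while Tie1 stood apart from Cdh5 above it and from Tek below it. In Tumor, Esam had the highest mean with 11.5 ± 4.58 FPKM, and it overlapped with Pecam1 at 8.30 ± 2.62, which overlapped with Eng at 8.17 ± 0.30. Every neighbour in the Tumor order overlapped with the next, except Tie1 with Angpt1 and Angpt1 with Tek. Angpt1 was ninth of 10 in Normal and rank 7 in Tumor, above Tek, with 1.90 ± 0.26 FPKM against 0.935 ± 0.339.

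Ratios taken within each sample show how the receptors and ligands stood to each other. The log2 ratio of Tek to Tie1 was -0.46, -0.33 and -0.21 in the Normal samples and -2.06, -1.97 and -2.05 in the Tumor samples. Tek was thus close to Tie1 in every normal gland and at 0.232 to 0.249 of its FPKM in every tumor. The group means were -0.33 ± 0.12 and -2.03 ± 0.05 (SD, n = 3), a difference of -1.69 (exact permutation test, two-sided, p = 0.1, the lowest value this design can reach). The log2 ratio of Angpt2 to Tek was -1.31, -1.90 and -1.54 in Normal and -0.45, -0.29 and -0.81 in Tumor. It was higher in every tumor, by 1.06 on average (exact permutation test, two-sided, p = 0.1). The log2 ratio of Angpt2 to Angpt1 was -0.30, -0.83 and -0.73 in Normal and -1.22, -1.01 and -2.48 in Tumor. The ratio was lower in every tumor, by 0.95 on average (a difference of -0.95, exact permutation test, two-sided, p = 0.1), and without Tumor replicate 3 the difference was -0.50. With a pseudocount of 1 it was -0.32 (exact permutation test, two-sided, p = 0.3). Over the 6 ratio tests of both experiments, the adjusted p of these 3 was 0.2 by the exact permutation test, so none passed 0.05.

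**Figure D3:**
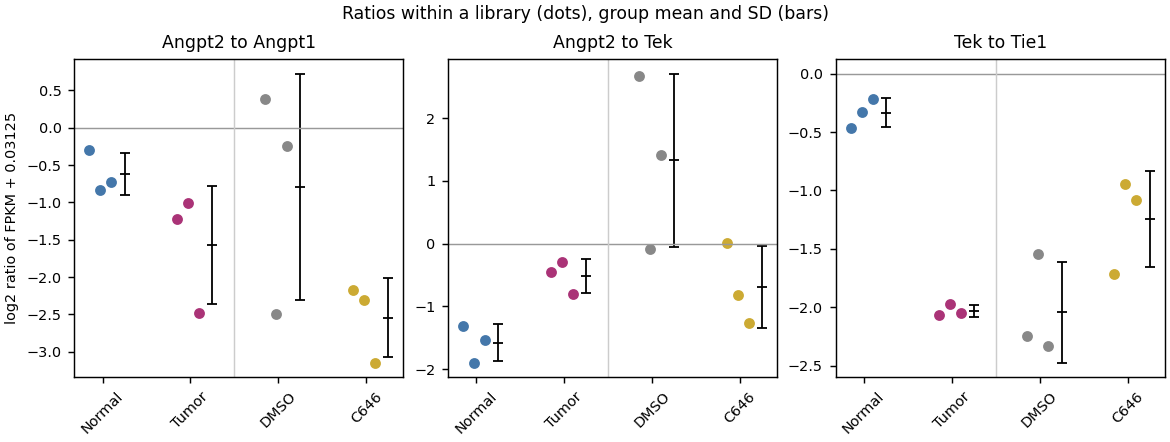
Log2 ratios of Angpt2 to Angpt1, Angpt2 to Tek and Tek to Tie1 within each sample (dots), with the group mean and SD (n = 3) beside them. The Tek to Tie1 ratios of Normal lie between -0.46 and -0.21 and those of Tumor between -2.06 and -1.97, and in all 3 panels DMSO and C646 overlap.

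The other genes of the angiopoietin and Tie pathway moved in both directions. Of 15 listed genes with a row, 14 were tested, of which 8 were lower, 3 higher and 3 not called, with a median log2 fold change of -0.93. Over the 13 that reached 1 FPKM in both groups, the median was -0.85. Beside this list and those below, 31.7% of all genes tested were lower in Tumor than in Normal and 28.8% were higher. The lower genes included Dok2, an adaptor that binds activated Tie2, with 14.8 ± 3.01 FPKM in Normal and 0.925 ± 0.497 in Tumor (log2 fold change -4.05, SE 0.36, limma adjusted p = 1.05e-04). Dok2 is also made by blood cells. Ptprb, which encodes the phosphatase VE-PTP that acts on Tie2, went from 6.14 ± 1.07 to 0.603 ± 0.058 FPKM (log2 fold change -3.27, limma adjusted p = 4.95e-05) and reached 1 FPKM only in Normal. Klf2, a transcription factor induced in endothelium by flow and by Tie2, went from 80.5 ± 20.6 to 9.66 ± 4.46 FPKM (log2 fold change -3.14, limma adjusted p = 3.11e-04). Other cell types can make Klf2 too, and their part in its lower level was not tested. Angpt4, the third angiopoietin, was at most 0.360 FPKM in any of these samples and was not tested.

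Around endoglin, 16 genes of the BMP9 and ALK1 pathway were listed and 12 tested. Of these 5 were lower, 1 was higher and 6 were not called, beside 31.7% lower and 28.8% higher over all genes tested. The ligand gene Bmp10 was listed at 0 in all samples of this comparison. Among the targets, Id3 was at 70.5 ± 9.07 FPKM in Normal and 17.0 ± 7.14 in Tumor (log2 fold change -2.15, limma adjusted p = 0.00137), while Id2 was at 39.6 ± 0.81 and 188 ± 54.2 (log2 fold change 2.21, limma adjusted p = 1.32e-04). Both encode inhibitors of DNA binding that many cell types make. Tmem100, an endothelial target of ALK1, went from 7.0 ± 1.37 to 1.86 ± 0.98 FPKM (log2 fold change -2.002, limma adjusted p = 0.00294). The receptor gene Acvrl1 (ALK1) itself did not pass, with a log2 fold change of -0.39 (SE 0.20, limma adjusted p = 0.124), and it is named here after its value was seen.

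The partners of endothelial junctions had more genes higher than lower, unlike the members. Of 11 tested, 7 were higher, 3 lower and 1 not called, and the median log2 fold change was 0.55. Jam3 and Jam2, junctional adhesion molecules, were among the lower ones, at 12.6 ± 0.97 against 1.07 ± 0.77 FPKM (log2 fold change -3.87, limma adjusted p = 0.00136) and at 8.42 ± 2.08 against 1.87 ± 0.81 (log2 fold change -2.22, limma adjusted p = 0.00147). F11r, the related molecule JAM-A that epithelium also makes, rose from 30.8 ± 1.81 to 91.4 ± 9.77 FPKM (log2 fold change 1.56, limma adjusted p = 8.96e-05). The 6 epithelial markers, which include Epcam and Cdh1, summed to 337 to 685 FPKM in Normal and 2228 to 3152 in Tumor, and their part in the junction list was not tested.

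Vwf was set beside the other genes of the Weibel-Palade body and of Vwf handling. Of 8 tested, 5 were lower, 1 higher and 2 not called, with a median log2 fold change of -1.49. Plat, tissue plasminogen activator, which these granules also hold, was at 15.5 ± 0.97 FPKM in Normal and 2.07 ± 0.75 in Tumor (log2 fold change -2.96, limma adjusted p = 1.75e-04). Selp, P-selectin of the granule membrane, went from 1.93 ± 0.36 to 0.483 ± 0.339 FPKM (log2 fold change -2.11, limma adjusted p = 0.00711). Stab2, a scavenger receptor of sinusoidal endothelium that takes up hyaluronan and Vwf, went from 4.05 ± 0.75 to 0.0328 ± 0.0430 FPKM (log2 fold change -6.19, limma adjusted p = 1.22e-04). Selp and Stab2 reached 1 FPKM only in Normal and so entered the test through the group where they were high. Over the 6 tested genes that reached 1 FPKM in both groups, the median log2 fold change was -0.69. Of 6 megakaryocyte and platelet markers, which matter because those cells make Vwf and Pecam1 too, 2 were tested and both were lower, and the list summed to 53.3 to 71.1 FPKM in Normal and 4.48 to 14.1 in Tumor. Pf4 made up most of that sum, and Gp6 was at 0 in all 6 samples.

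The lower level was shared by the wider endothelial list. All 23 other pan-endothelial genes with a row were tested and all 23 were lower, with a median log2 fold change of -2.23, close to the -2.41 of the members. S1pr1, the sphingosine-1-phosphate receptor of endothelium, lymphocytes and other cells, was at 43.2 ± 3.19 FPKM in Normal and 2.91 ± 0.65 in Tumor (log2 fold change -3.90, SE 0.19, limma adjusted p = 1.53e-05). Fli1, an ETS factor of endothelium and blood cells, was at 10.1 ± 0.87 and 0.715 ± 0.329 FPKM (log2 fold change -3.84, SE 0.31, limma adjusted p = 7.91e-05). Ptprb was the third by size of change, and it and She reached 1 FPKM only in Normal. Over the 21 genes that reached 1 FPKM in both groups, the median was -2.21. This list, like the members, was chosen with earlier results of these data known, so it is no independent check.

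**Figure D4:**
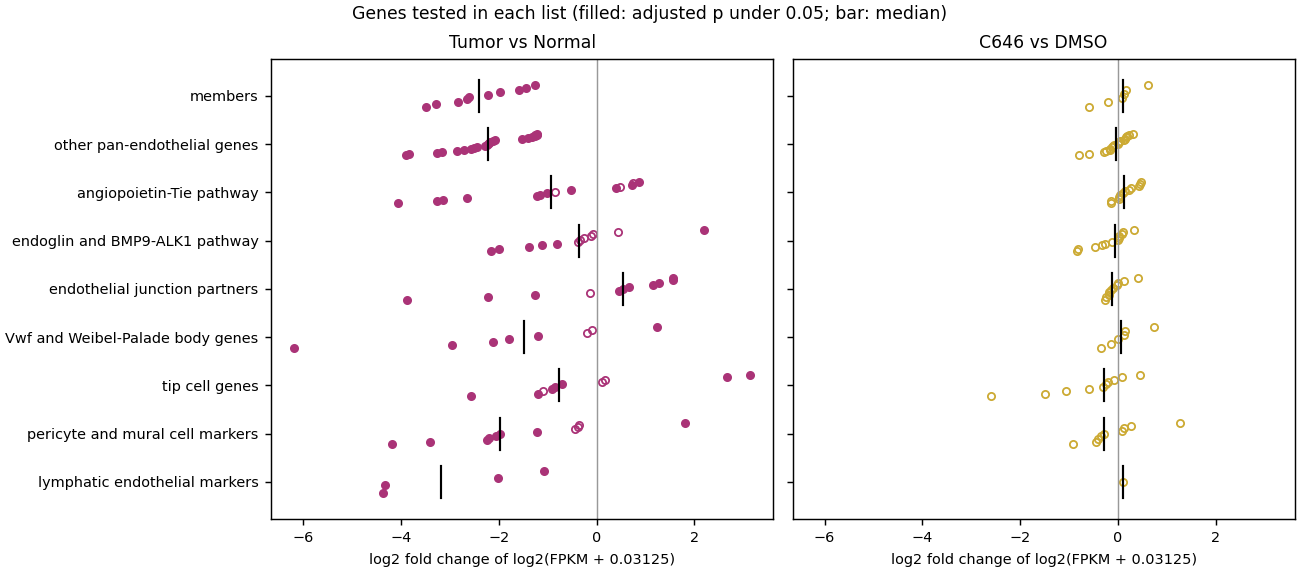
Log2 fold change of every tested gene (dots, filled where the adjusted p is under 0.05) and list median (bars), for Tumor against Normal on the left and C646 against DMSO on the right. The members and all 23 other pan-endothelial genes lie left of 0 in the left panel, the junction partners have a median of 0.55, and the right panel has no filled dot.

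Markers of other cell types also differed between normal gland and tumor. The 8 adipocyte markers summed to 26321 to 33346 FPKM in Normal and 205 to 2583 in Tumor, and all 8 were lower. The 6 B and T cell markers summed to 310 to 402 FPKM in Normal and 0.674 to 1.14 in Tumor, where Ms4a1 was at 0 in all 3 samples. Skeletal muscle markers went the other way, from 33.4 to 88.5 FPKM in Normal to 1447 to 4064 in Tumor, with all 5 higher. The 4 fibroblast markers with a row summed to 1258 to 1403 FPKM in Normal and 187 to 444 in Tumor, and the 5 macrophage markers to 153 to 172 and 166 to 236. Of the macrophage markers 4 were lower and 1 was higher, with a median log2 fold change of -1.29, and the higher one was Cd14, named after its value was seen, with 40.2 ± 8.93 FPKM in Normal and 156 ± 26.6 in Tumor (log2 fold change 1.96, limma adjusted p = 2.20e-04). The normal glands thus held far more fat and lymphocyte transcripts and the tumors more epithelial and muscle transcripts, and the part of this in the level of the members was not tested.

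Tumor replicate 1 had the highest level for 8 of the 10 members, and replicate 3 the lowest for 8. Replicate 1 also had the highest sum of adipocyte markers (2583 FPKM, against 205 and 218 in the others), and the highest sum of muscle markers. Its relative depth was lower than that of replicate 3, which was sequenced 1.53 times as deeply as read from the steps of low values, and the part of depth in this order was not tested. In Normal, replicate 3 was highest for 9 of the 10, with a coefficient of variation from 3.10% for Eng to 19.5% for Angpt1. Deviations of each sample from its group mean were compared over all 12 samples, as a description of samples that share tissue, library and depth. With the mean deviation of the other identity members, Cldn5 had a Pearson r of 0.917, Tie1 of 0.874, Pecam1 of 0.832, Vwf of 0.671, Tek of 0.556, Cdh5 of 0.542 and Eng of 0.432. Angpt2, with 0.241, and Angpt1, with 0.057, followed the identity genes least.

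**Figure D5:**
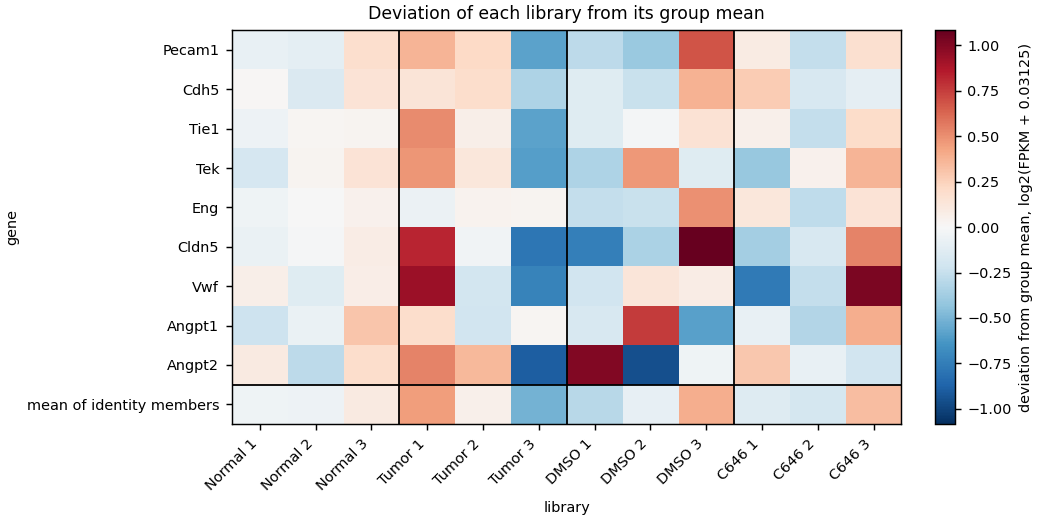
Deviation of each sample from its group mean in log2(FPKM + 0.03125), for the 9 members with a row in all 12 samples (rows) and the mean of the 7 identity members (lowest row). Tumor replicate 1 is above and Tumor replicate 3 below the group mean for most identity genes, DMSO replicate 3 is above it for Pecam1, Cldn5 and Eng, and Angpt1 and Angpt2 deviate in opposite directions in DMSO replicates 1 and 2.

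The 10 other genes with the most similar deviations, among 11840 ranked, had an r of 0.934 to 0.969 with the mean of the identity members over the 12 samples. In order they were Hoxd8, Dcn, Cd34, Acaca, Shank3, Penk, Pnrc1, Scnn1g, the joined row of Glul and Mir8114, and Rasa3. Cd34, a surface protein of endothelial and stromal progenitor cells, is one of the other pan-endothelial genes, and Dcn, decorin of the stromal matrix, is one of the fibroblast markers.

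C646 was compared with DMSO to see whether the vessel transcripts of the tumors differed after injection of C646. No member differed by the test. Of the 9 with a row, 6 were tested and 0 were called in either direction, beside 0% of 12083 genes over the whole table. The smallest adjusted p over all genes by limma was 0.990, and 384 genes (1.4% higher and 1.78% lower) had an unadjusted p under 0.05, none of them a member. The median log2 fold change was 0.11 over the 6 members and -0.01 over all genes. Tek, Vwf and Angpt2 did not reach 1 FPKM in 3 samples and were left out of the test.

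Pecam1 was at 12.2, 11.2 and 23.8 FPKM in DMSO and at 17.7, 13.9 and 18.8 in C646. The highest value belonged to a DMSO tumor and the C646 values lay inside the DMSO range. The log2 fold change was 0.17 with a 95% interval of -0.54 to 0.88 (limma adjusted p = 0.990), and 0.51 without DMSO replicate 3. Cdh5 had a pair of rows in these files, and their sums were 8.01, 7.45 and 11.4 FPKM in DMSO and 9.24, 6.77 and 7.11 in C646. The groups overlapped, and the log2 fold change was -0.20 (95% interval -0.72 to 0.32), or -0.41 with the first row alone. Cldn5 was at 2.73, 3.59 and 9.73 FPKM in DMSO and at 2.34, 2.69 and 4.43 in C646, with a log2 fold change of -0.59 (95% interval -1.77 to 0.60). Its lower mean in C646 rested on DMSO replicate 3, without which the log2 fold change was -0.04. The joined row of Esam and Msantd2 ranged from 12.0 to 15.4 FPKM in DMSO and from 12.4 to 15.1 in C646, and its log2 fold change was 0.00 to 2 decimals (95% interval -0.36 to 0.36).

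DMSO replicate 3 was the highest of its group for 5 of the 9 members. The 23 other pan-endothelial genes with a row in these files summed there to 154 FPKM, against 82.0 and 79.2 in the other DMSO tumors. Its skeletal muscle markers summed to 307 FPKM, against 0.376 and 0.934, and C646 replicates 1 and 3 had 320 and 297 against 0.831 in replicate 2. Whether muscle in the sampled tumor bears on the level of the members was not tested.

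Of the receptors, Tie1 was at 2.60, 2.80 and 3.18 FPKM in DMSO and at 3.15, 2.53 and 3.50 in C646, a log2 fold change of 0.09 (95% interval -0.46 to 0.64). Eng was at 7.13, 7.23 and 12.1 FPKM in DMSO and at 10.2, 7.73 and 10.4 in C646, a log2 fold change of 0.14 (95% interval -0.46 to 0.73). Both overlapped between the groups. Tek was at 0.523, 0.939 and 0.608 FPKM in DMSO and at 0.941, 1.30 and 1.64 in C646. It was the one member of 9 without overlap, although the closest samples, 0.939 and 0.941 FPKM, were nearly equal, and 4.04% of all genes tested were higher and 4.52% lower in C646 without overlap. Without the filter its log2 fold change was 0.89 (limma adjusted p = 0.925).

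Vwf was at 0.462, 0.592 and 0.570 FPKM in DMSO and at 0.467, 0.679 and 1.69 in C646, where replicate 3 alone was high. Angpt1 was at 2.67, 5.11 and 1.997 FPKM in DMSO and at 4.39, 3.72 and 6.09 in C646. The groups overlapped, with a log2 fold change of 0.62 (95% interval -0.29 to 1.52, limma adjusted p = 0.990). Angpt2 was at 3.49, 0.879 and 1.67 FPKM in DMSO and at 0.948, 0.727 and 0.661 in C646. A pair of DMSO tumors lay above every C646 tumor and the other did not, and without the filter the log2 fold change was -1.14 (limma adjusted p = 0.925).

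The log2 ratio of Angpt2 to Angpt1 was 0.38, -2.50 and -0.25 in DMSO and -2.17, -2.31 and -3.15 in C646. DMSO replicate 2 fell among the C646 tumors, and the difference of -1.75 did not pass (exact permutation test, two-sided, p = 0.3). The log2 ratio of Angpt2 to Tek was 2.67, -0.09 and 1.41 in DMSO and 0.01, -0.82 and -1.27 in C646, a difference of -2.02 (exact permutation test, two-sided, p = 0.2). The ratio of Tek to Tie1 was -2.25, -1.54 and -2.33 in DMSO and -1.71, -0.94 and -1.08 in C646, a difference of 0.80 (exact permutation test, two-sided, p = 0.2). The groups overlapped in each of these 3 ratios, and the adjusted p over the 6 ratio tests was 0.3, 0.24 and 0.24 by the exact permutation test.

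None of the surrounding lists had a gene called between C646 and DMSO by limma. Of the angiopoietin and Tie pathway 12 genes were tested, with a median log2 fold change of 0.13 and 1 unadjusted p under 0.05. Of the other pan-endothelial genes 18 were tested, with a median of -0.04 and 0 unadjusted p under 0.05. Of the Weibel-Palade genes 6 were tested with a median of 0.06, of the junction partners 10 with a median of -0.12, and of the BMP9 and ALK1 pathway 12 with a median of -0.06. Of the adipocyte markers 7 were tested, 1 of which, Plin1, reached 1 FPKM only in C646. The other 6 had a median of 3.37 with 5 at an unadjusted p under 0.05, and the list summed to 76.7 to 176 FPKM in DMSO and 194 to 705 in C646. C646 replicate 3, the sample with the most adipocyte transcripts, was also the highest of its group for 7 of the 9 members, and the part of fat in this was not tested.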

How the data were processed

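Poly-A RNA from 12 mouse mammary samples was sequenced without strand information. The authors mapped the reads with TopHat2 2.1.1 to mm10 and deposited FPKM per gene from Cufflinks 2.2.1, in 1 file per sample. FPKM is already divided by library size and gene length, and is not a count. The number of reads is unknown, so no counting interval is given. The Normal and Tumor files have 26220 rows, of which 1837 without a name were dropped, and the DMSO and C646 files 24304, so the experiments were tested separately. The samples of the second experiment were close in relative depth, read from the steps of low values, at 1.07 to 1.32 for the 7 pairs with a sharp peak. The first experiment had 1 such pair, in which Tumor replicate 3 was 1.53 times as deep as replicate 1.

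FPKM was summed per gene name. Groups were compared with limma 3.58.1 in R 4.3.3 (lmFit, eBayes with a trend) on log2(FPKM + 0.03125). A gene was tested if 3 or more of the 6 samples reached 1 FPKM. P-values were adjusted by Benjamini-Hochberg over all genes tested and called under 0.05. The added constant makes fold changes of low genes too small. Within-sample ratios were compared by exact permutation of 3 samples against 3. Spread is between mice or, for Normal, pools of 3 mice. The limma code was also run on simulated data with known changes. Replicate numbers were not taken as pairs.

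The members and lists were chosen with earlier results of these data known. Named genes were the 10 members, at most 3 called genes with the largest change per list and comparison, and the 10 genes most like the identity members. Positions came from GENCODE on GRCm38, the build of mm10, and promoters from RefSeq. Figures and tables were made in Python 3.11.15. Alternatives were other pseudocounts, filters, scalings, a joint fit, a replicate block and leaving out each sample. Those on the mean filter, the first Cdh5 row and the joined Esam row were chosen after seeing the data. Antibody-based and proteomic data of the study were not analysed here.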

Additional observations from a re-analysis of the deposited data

How the results depend on the processing

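Every member tested kept its direction and call in Tumor against Normal under each alternative that tested it. The count of lower members was 9 or 10 and that of higher members 0 throughout. It was 9 whenever a Normal sample was left out, since Angpt2 then no longer entered the test, and 9 in the joint fit of all 4 groups, which has no Esam. With a pseudocount of 1 the median log2 fold change of the members was -2.10, and with it or with quantile normalization Pecam1 (-2.68 and -2.82) changed more than Vwf (-2.35 and -2.77). Over 1.5 times smaller were Angpt2 under both (-1.27 and -1.33) and Angpt1 under quantile normalization (-0.74). Leaving out 1 sample gave a median of -2.66 to -2.12, and 9 to 10 lower. Over all genes the number lower was 2686 without Normal replicate 2 and 2570 without Normal replicate 3, and quantile normalization moved the median of all genes to 0.12. In C646 against DMSO, 0 members were called in any fit, with medians of -0.01 to 0.25 when 1 sample was left out. The joint fit called 1 gene higher, and leaving out DMSO replicate 2 called 12 lower. Leaving out 1 sample moved the difference in Angpt2 to Angpt1 to -1.23 to -0.50 in Tumor against Normal and -2.61 to -1.17 in C646 against DMSO, that in Angpt2 to Tek to 0.91 to 1.21 and -2.73 to -1.35, and that in Tek to Tie1 to -1.76 to -1.63 and 0.65 to 1.04. A pseudocount of 1 made the difference in Angpt2 to Angpt1 -0.32 and -1.15, that in Angpt2 to Tek 1.11 and -1.11, and that in Tek to Tie1 -1.01 and 0.37, all but the 1.11 over 1.5 times smaller. Same-numbered samples correlated in their deviations with an r of -0.10 to 0.01 in the first experiment and 0.07 to 0.17 in the second. In turn, 1 of 6 and 4 of 6 samples correlated best with their own number. The main fits took no pairs, although same-numbered samples of the second experiment were weakly alike, and a replicate block was also run. With the replicate block, 10 members were lower (median -2.41) and 0 were called for C646 (median 0.11), with 3439 genes higher and 3827 lower over the first table. In the block the ratio differences were unchanged and their exact sign-flip p was 0.25, the smallest possible, in all but Angpt2 to Angpt1 for C646, with 0.5. Without read totals, levels under 1 FPKM such as those of Angpt2, Tek and Vwf in tumors carry an unknown counting error.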

Other observations

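Genes of the cells next to the endothelium were also measured. Of 11 pericyte and mural cell markers, 7 were lower in Tumor than in Normal, 1 was higher and 3 were not called by limma. The median log2 fold change was -1.97, or -1.59 over the 10 that reached 1 FPKM in both groups. Of all genes tested, 31.7% were lower and 28.8% higher. Myh11, smooth muscle myosin, was at 14.0 ± 3.73 FPKM in Normal and 0.848 ± 0.573 in Tumor (log2 fold change -4.19, limma adjusted p = 3.82e-04). Cspg4, the NG2 proteoglycan of pericytes, was at 9.13 ± 1.25 and 0.912 ± 0.523 FPKM (log2 fold change -3.40, limma adjusted p = 2.61e-04). Abcc9, a subunit of a potassium channel of pericytes, was at 3.94 ± 0.63 and 0.816 ± 0.139 FPKM (log2 fold change -2.23, limma adjusted p = 2.91e-04) and reached 1 FPKM only in Normal. The higher gene was Des, desmin, which muscle fibres also make, with a log2 fold change of 1.80 (limma adjusted p = 0.00135), and it is named after its value was seen. The summed level of the 11 markers overlapped between the groups, at 166 to 183 FPKM in Normal and 112 to 169 in Tumor. In C646 against DMSO, 9 were tested and 0 called, with a median of -0.28.

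Lymphatic endothelial markers were low in tumors. Of 6 with a row, 4 were tested and all 4 were lower in Tumor, with a median log2 fold change of -3.17. Only 2 of these reached 1 FPKM in both groups, and their median was -2.71. Of all genes tested, 31.7% were lower and 28.8% higher. The sum of the 6 was 25.5 to 32.3 FPKM in Normal and 4.39 to 6.17 in Tumor. Lyve1, the hyaluronan receptor of lymphatic endothelium and some macrophages, was at 16.3 ± 4.14 FPKM in Normal and 0.846 ± 0.453 in Tumor (log2 fold change -4.33, limma adjusted p = 1.41e-04). Mmrn1 (1.21 ± 0.16 and 0.0395 ± 0.0515 FPKM) and Flt4, the receptor VEGFR-3 (2.14 ± 0.22 and 0.504 ± 0.057 FPKM), were lower too and reached 1 FPKM only in Normal. Prox1, the transcription factor that defines this lineage, was under 1 FPKM in every sample of both groups.

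Genes of sprouting tip cells were called in both directions. Of 10 tested, 5 were lower, 2 higher and 3 not called in Tumor against Normal, with a median log2 fold change of -0.78. Over all genes tested, 31.7% were lower and 28.8% higher, so calls in both directions are common. Pgf, placental growth factor, went from 4.18 ± 0.92 to 37.9 ± 11.1 FPKM (log2 fold change 3.15, limma adjusted p = 9.30e-05), and Apln, apelin, from 2.97 ± 0.78 to 23.2 ± 19.0 FPKM (log2 fold change 2.66, limma adjusted p = 0.00457). Nid2, a basement membrane nidogen, went from 6.31 ± 0.25 to 1.08 ± 0.36 FPKM (log2 fold change -2.56, limma adjusted p = 1.96e-04). Other cell types can make all 3.

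A few of these genes varied among the DMSO tumors in the way Angpt2 did, and they are named after their values were seen. Adm, adrenomedullin, was at 46.3, 4.48 and 48.2 FPKM in DMSO and at 9.26, 3.28 and 1.45 in C646. Esm1 was at 4.46, 0.731 and 2.83 FPKM in DMSO and at 2.12, 0.563 and 0.317 in C646, and Pgf at 50.1, 24.6 and 47.5 and at 35.3, 15.8 and 11.2. As for Angpt2, DMSO replicates 1 and 3 were above all C646 tumors and DMSO replicate 2 was not. None of these genes passed limma, with an adjusted p of 0.990 for Adm, Esm1 and Pgf, an unadjusted p of 0.042 for Adm, and no test of Angpt2 under the filter. Adm, Esm1 and Pgf were picked for this order of samples, and how many of all genes share it was not counted. Of the 10 tip cell genes tested in C646 against DMSO, 8 had a log2 fold change below 0 and 2 above, with a median of -0.27. None was called, and the list includes Pgf, picked above. The median over all genes tested was -0.01, and the share of all genes below 0 was not counted. Over all genes, leaving out DMSO replicate 2 called 12 lower, while leaving out any other single sample called 0 lower. Replicate 2 is the DMSO sample that Adm, Esm1 and Pgf were picked to differ from, so that run is no separate evidence for them. Whether the 12 include any of these genes was not checked.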
